A study of Mus musculus with 33 samples.

Results

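Mouse embryonic stem cells (ESCs) without HP1γ were set against *wild-type* ESCs by RNA-seq of total RNA. The comparison took the 3 libraries labelled as HP1γ knockout and the 3 libraries of 1 of the *wild-type* groups, 6 of the 33 libraries of the series, and all genes of their deposited table. The series covered 11 conditions, most of them ESCs without 1, 2 or all of the HP1 proteins HP1α, HP1β and HP1γ. All cells used here were labelled as mouse ESCs of strain C57BL/6. *Hp1γ* Δ/Δ ESCs carried a constitutive deletion of *Cbx3*, the gene of HP1γ, made with Cas9 and a pair of guides. The control *wild-type* ESCs carried no engineered deletion, and a second *wild-type* group of 3 libraries was used as an independent control. These groups are called *wild-type* set A and set B, because the labels give them the same genotype under different names. Each mutant line was an individual clone by the study's methods, so a difference between genotypes cannot be told apart from a difference between clones. ESCs were grown with LIF and serum on inactivated fibroblast feeders and were separated from these by brief plating on gelatin. The libraries of a group are biological replicates by the study's methods. The labels do not say that they came from separate cultures, and p-values then measure only the spread between these libraries.

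HP1 proteins are small chromatin proteins that bind histone H3 methylated at lysine 9 through a chromodomain and recruit partners through a chromoshadow domain. They are known as components of heterochromatin and of gene silencing, and the mammalian genome encodes HP1α (*Cbx5*), HP1β (*Cbx1*) and HP1γ (*Cbx3*). HP1γ is also known to occur in euchromatin and along the bodies of transcribed genes. The comparison asks which mRNAs differ in level when HP1γ alone is missing and its paralogs are still there.

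The guides of the deletion are shown because they define the mutant allele. Each is a designed spacer of 20 bases, printed 5′ to 3′ without its PAM. Neither was found on either strand of a GENCODE M21 transcript or of a RefSeq promoter window, and their coordinates were not determined here.
HP1γ upstream guide: gaggtgcttacactggatca
HP1γ downstream guide: tatgatagccttgccgagcg

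Total estimated counts ran from 19961367 to 24699608 in the *Hp1γ* Δ/Δ libraries, from 20627149 to 21668932 in set A and from 20227691 to 22232704 in set B. Values below are library-scaled counts (CPM, counts set to a common total per library) after TMM scaling of all libraries used here together. A gene was called where edgeR gave an adjusted p below 0.05 (quasi-likelihood test) and its log2 fold change exceeded 1 in size. The biological coefficient of variation was 0.0469, so that fold changes well under the threshold also passed the p alone. With 3 libraries per group the smallest exact permutation p is 0.1, so the tests rest on the fit across all genes. The 7 ESC markers fixed for the check of the labels summed to 2553 to 2606 CPM in *Hp1γ* Δ/Δ ESCs and to 2493 to 2501 CPM in set A. Markers of 2-cell-like cells were at or near 0, with 0 counts of all 5 in set A and at most 0.23 CPM in a *Hp1γ* Δ/Δ library. The summed level of the 9 feeder fibroblast markers lay between 67.7 and 72.9 CPM in the mutant, between 66.3 and 69.5 CPM in set A and between 77.5 and 88.7 CPM in set B. *Postn* and *Lum*, the lowest of these markers, had 16 and 2 counts in all *Hp1γ* Δ/Δ libraries together and 1 and 0 in set A. Of the other feeder markers, *Col1a1*, *Col1a2* and *Acta2* were higher than in set A at the adjusted p, and *Thy1*, *Tagln* and *Dcn* were lower. The 5 markers of primitive endoderm summed to 2.57 to 3.15 CPM in *Hp1γ* Δ/Δ ESCs and to 1.74 to 2.08 CPM in set A.

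*Cbx3* (ENSMUSG00000029836) lies on chromosome 6 of GRCm38 from 51470360 to 51483704 on the plus strand. It had 74.2, 75.8 and 76.1 CPM in *Hp1γ* Δ/Δ ESCs against 185, 173 and 174 CPM in set A and 199, 157 and 175 CPM in set B. The mutant libraries lay together and below every *wild-type* library. The log2 fold change was −1.23 ± 0.039 (standard error, n = 3 per group, edgeR adjusted p = 1.8e-14) against set A and −1.21 against set B. Transcript was therefore left at 42.5% of the set A level. The deposited table does not separate exons, so this value does not show which exons remained. Processed copies of *Cbx3* in the genome can also share reads with it. The level of the protein was not analysed here. *Cbx5* had 421, 419.7 and 417 CPM in *Hp1γ* Δ/Δ ESCs against 488, 478 and 489 CPM in set A, a log2 fold change of −0.21 ± 0.023 that passed the p and not the fold threshold. *Cbx1* had 439.6, 439 and 431 CPM against 429, 443 and 447 CPM, and its groups overlapped (log2 fold change −0.0066, adjusted p = 0.846). Per length, in the TPM values of the deposited table, the mean level in set A was 450.1 ± 11.3 TPM for *Cbx1*, 145 ± 4.83 TPM for *Cbx3* and 91.4 ± 5.61 TPM for *Cbx5* (SD, n = 3). In *Hp1γ* Δ/Δ ESCs the order of *Cbx3* and *Cbx5* was the other way round, with 74.6 ± 6.74 and 79.6 ± 3.08 TPM, and their libraries overlapped.

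Of 15823 genes tested, 884 were deregulated in *Hp1γ* Δ/Δ ESCs, 5.59% of those tested. They were 323 up-regulated genes (2.04%) and 561 down-regulated genes (3.55%). At the adjusted p alone 7394 genes (46.7%) passed, of which 3701 (23.4%) were higher and 3693 (23.3%) lower, so the 2 directions were close to equal before the fold threshold. The median log2 fold change of all genes tested was −0.01. Of the up-regulated genes 68 had a log2 fold change over 2, and of the down-regulated genes 47 fell by more than that. The median size of a called change was 1.45 in the up-regulated and 1.27 in the down-regulated genes on the log2 scale. Libraries of the mutant and set A did not overlap for 313 of the 323 and for 544 of the 561 genes. The call itself favours such separation, and the share over all genes tested is not given here. These counts are therefore no further support.

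Most deregulated genes were expressed at low levels. Of 1673 genes with a mean under 1 CPM over the 6 libraries, 14.0% were called, and of 4670 genes from 1 to 10 CPM 10.9%. The share was 1.79% of 7213 genes from 10 to 100 CPM and 0.485% of 2267 genes at 100 CPM and over. Of the up-regulated genes 109 had a mean under 0.5 CPM in set A, and of the down-regulated genes 122 had one under 0.5 CPM in *Hp1γ* Δ/Δ ESCs. The filter kept a gene that reached a minimum count of 10, scaled to library size, in as many libraries as a group holds. Genes this low could thus enter the test through the group where they were higher. The filter therefore favours calls at low levels, and the larger shares there are a description only. The 11 called genes at 100 CPM and over were chosen by level after their values were seen. Apart from *Cbx3*, *Klhl13*, an adaptor of a cullin ubiquitin ligase, fell from 1171 to 566 CPM, and the bicarbonate transporter *Slc4a4* fell from 479 to 199.5 CPM. *Cth*, an enzyme of cysteine synthesis, fell from 208 to 69.4 CPM, and *Fstl1*, a secreted glycoprotein encoded on chromosome 16, fell from 218 to 75.5 CPM. *Usp26*, *Gpt2*, *Syne2* and *Adarb2* were the other falls. Against set B only *Cbx3*, *Fstl1*, *Usp26* and *Neat1* of the 11 were called the same way, and *Klhl13* (−0.88), *Slc4a4* (−0.81), *Cth* (−0.79), *Gpt2* (−0.85), *Syne2* (−0.72) and *Fabp3* (0.71) were within the fold threshold. *Adarb2*, at 95.9 CPM in the mutant and 193 CPM in set A, had a log2 fold change of 5.28 against set B, the opposite direction. *Neat1*, a nuclear long noncoding RNA of paraspeckles, rose from 113 to 226 CPM, and *Fabp3*, a fatty acid binding protein, rose from 72.8 to 162 CPM.

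**Figure D1:**
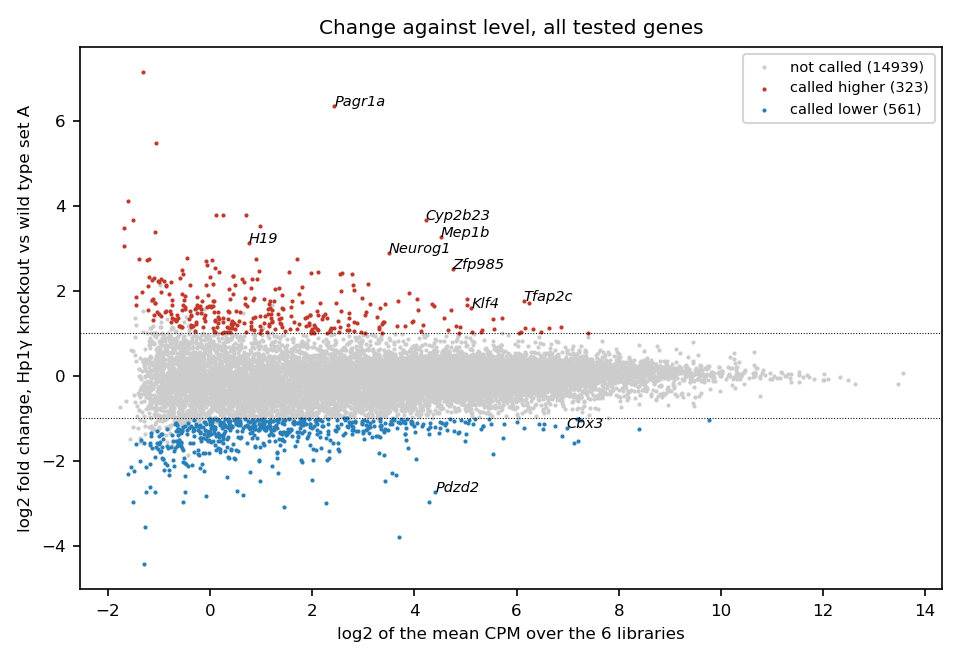
Log2 fold change of Hp1γ knockout against wild type set A (y) by the log2 of the mean CPM over the 6 libraries (x), 1 point per tested gene. Of 15823 genes, 323 were called higher (red) and 561 lower (blue), most of them at low levels, and the dotted lines mark the fold threshold.

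Against set B, 1693 of 15941 genes were called (10.6%). Of the 323 genes up-regulated against set A, 199 were called in the same direction against set B, 301 had the same sign, and 4 were called in the opposite direction. Of the 561 down-regulated genes, 514 were tested against set B, 320 were called the same way, 472 had the same sign and 31 were called the opposite way. These comparisons share the *Hp1γ* Δ/Δ libraries, so the 519 genes called against both sets are not independent evidence of a change. They show which calls did not hang on the choice of *wild-type* libraries. The genes named next were the largest changes among these.

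The largest rises were genes of unlike function. *Cyp2b23*, a cytochrome P450 gene on chromosome 7 from 26665227 to 26686437, had 33.7, 33.2 and 36.9 CPM in *Hp1γ* Δ/Δ ESCs against 2.72, 3.01 and 2.42 CPM in set A. No mutant library came near a *wild-type* library of either set. Its log2 fold change was 3.67 ± 0.10 (adjusted p = 4.08e-15), 12.7-fold. *Mep1b*, which encodes a subunit of the metalloprotease meprin and lies on chromosome 18, had 36.3, 43.0 and 44.9 CPM against 4.43, 3.79 and 4.79 CPM. It rose 9.59-fold against set A, with a log2 fold change of 3.26 ± 0.11 (adjusted p = 2.64e-14) and of 4.57 against set B. *Neurog1*, a proneural transcription factor gene on chromosome 13 from 56250478 to 56252163, had 20.8, 17.8 and 21 CPM against 1.94, 2.54 and 3.68 CPM. The groups were far apart, and the log2 fold change was 2.88 ± 0.15 (adjusted p = 3e-11). *Zfp985*, a zinc finger gene on chromosome 4 from 147553277 to 147585198, had 47.7, 42.8 and 46.4 CPM against 8.72, 7.82 and 7.5 CPM, a 5.70-fold rise. It lies among related zinc finger genes whose reads may be shared. *Sox21*, a transcription factor gene of neural progenitors, had 12.2, 8.76 and 9.46 CPM against 1.71, 2.04 and 1.94 CPM, a log2 fold change of 2.42 ± 0.18. *Fmr1nb*, a testis-associated gene on the X chromosome, had 11.9, 11 and 11.5 CPM against 1.98, 2.50 and 2.03 CPM, a 5.28-fold rise. *Stra8*, which is known for its role in entry into meiosis, had 12.7, 9.70 and 11.4 CPM against 1.48, 3.52 and 2.66 CPM, a log2 fold change of 2.14 ± 0.20. In each of these the lowest mutant library lay above the highest *wild-type* library of either set.

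The other rises were less even or had a weaker *wild-type* signal. *Slc15a2*, a peptide transporter gene, had 10.8, 9.74 and 8.64 CPM against 2.58, 1.57 and 1.40 CPM in set A, a 5.24-fold rise on chromosome 16, whose genes mostly lay lower. *Rpl39l*, a ribosomal protein gene paralog on the same chromosome, had 6.21, 5.22 and 5.65 CPM against 1.11, 0.416 and 1.02 CPM, a 6.70-fold rise. *Notumos*, antisense to *Notum*, had 5.34, 7.29 and 7.17 CPM against 1.01, 1.57 and 1.11 CPM. Strand use in the counting was not given in the sources used here, so its reads may come in part from *Notum*, which rose as well. *Cphx2*, a homeobox gene, had 7.43, 4.65 and 4.82 CPM against 0, 1.57 and 2.42 CPM in set A and 4.08, 1.03 and 0.0456 CPM in set B. Its *wild-type* libraries differed widely, it has a near copy next to it, and DESeq2 gave an adjusted p of 0.259. *Pagr1a* had 21.4, 5.66 and 5.01 CPM against 0.0461, 0 and 0.339 CPM in set A, while a set B library had 5.65 CPM and another had 0. It has a near-identical neighbour, *Pagr1b*, and its fitted log2 fold change of 6.34 against set A and 2.44 against set B is uncertain. Without the first *Hp1γ* Δ/Δ library the value against set A was 5.36, and without the last set A library it was 8.52.

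The largest falls were likewise genes of unlike function. *Pdzd2*, a PDZ domain gene on chromosome 15 from 12359711 to 12739924, had 5.29, 5.34 and 6.06 CPM in *Hp1γ* Δ/Δ ESCs against 35.3, 37.6 and 38.1 CPM in set A. No mutant library came near a *wild-type* library of either set. The log2 fold change was −2.73 ± 0.086 (adjusted p = 1.8e-14). *Efhc2*, an EF-hand gene on the X chromosome, had 4.12, 3.14 and 2.62 CPM against 18.3, 16.6 and 20 CPM. *Lama4*, a laminin chain of basement membranes, had 1.32, 0.896 and 1.47 CPM against 7.38, 6.99 and 5.76 CPM, a log2 fold change of −2.45 ± 0.22. *Pclo*, a scaffold of the presynaptic active zone, had 4.38, 3.14 and 4.64 CPM against 20.2, 18.7 and 20.1 CPM. *Khdc3*, known in oocytes and the early embryo as a part of the subcortical maternal complex, had 3.51, 4.07 and 4.69 CPM against 21.7, 18.7 and 22.3 CPM, a log2 fold change of −2.34 ± 0.12. None of these genes overlapped with set B either. *Plcb1*, a phospholipase C, *Tarm1*, *Gask1b*, *Tafa4*, *Exoc3l2* and *Ptprtos*, antisense to *Ptprt*, were among the largest falls too, with log2 fold changes from −2.02 to −1.86. The absence of overlap with set A was a condition for naming these genes.

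**Figure D2:**
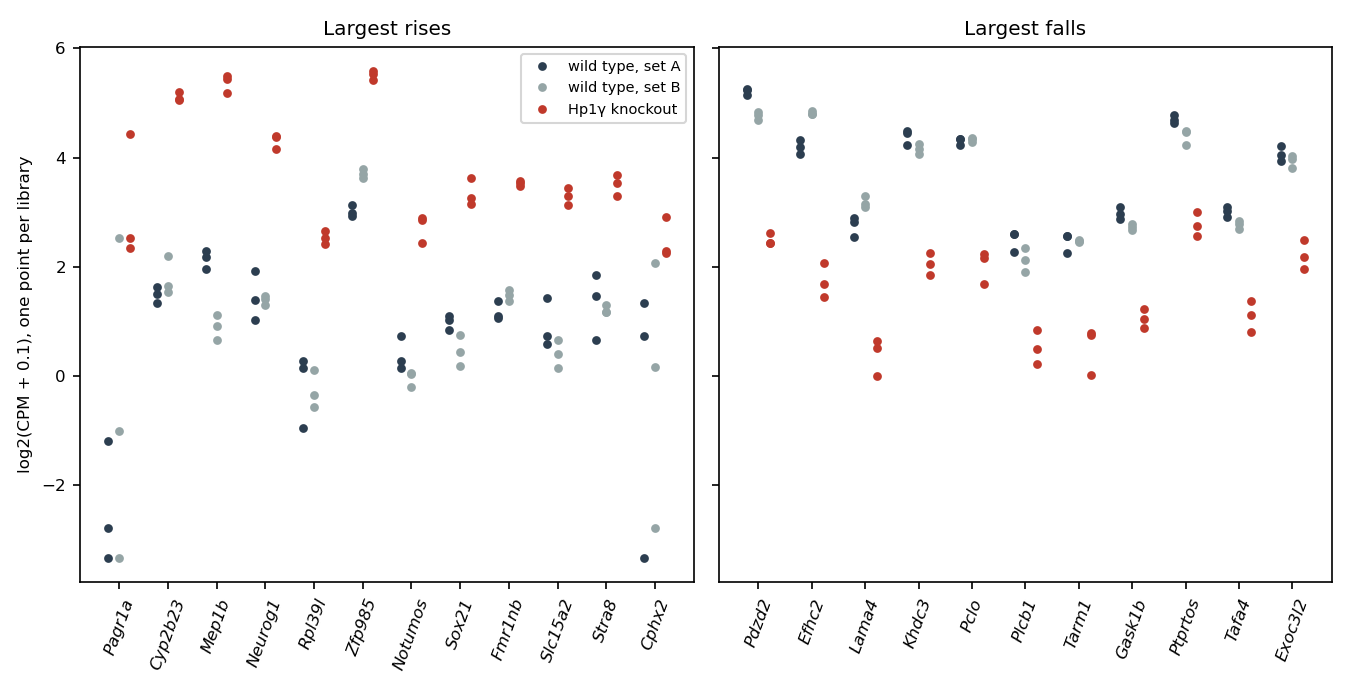
Levels as log2(CPM + 0.1) (y), 1 point per library, of the 12 largest rises (left) and 11 of the largest falls (right) among genes called against both wild-type sets. The 3 Hp1γ knockout libraries (red) lay apart from the 3 libraries of set A (dark) for every gene, while Pagr1a and Cphx2 spread widely among the wild-type libraries of set B (grey).

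The pluripotency network was present and mostly near its *wild-type* level. *Pou5f1* had 912, 885 and 895 CPM in *Hp1γ* Δ/Δ ESCs against 959, 955 and 949 CPM in set A, and *Sox2* had 439, 428 and 430.2 CPM against 353, 362 and 355 CPM. Both passed the p and not the fold threshold, with log2 fold changes of −0.08 and 0.28. *Nanog* had 309, 300.0 and 289 CPM against 201, 208 and 209.6 CPM, a log2 fold change of 0.54 ± 0.031 below the fold threshold, and of 0.59 against set B. Of 27 core and naive pluripotency genes tested, 2 were up-regulated and 0 down-regulated (7.41%, beside 5.59% of all genes). At the p alone 15 were higher and 9 lower. The list's median log2 fold change was 0.15, beside −0.01 over all genes. The 2 were *Klf4* and *Tbx3*, transcription factors known to sustain naive pluripotency downstream of LIF. *Klf4* had 53, 49.5 and 53.1 CPM against 17.3, 17.5 and 16.9 CPM (log2 fold change 1.59 ± 0.060, adjusted p = 1.87e-13). *Tbx3* had 16.2, 16.6 and 15.9 CPM against 5.07, 5.32 and 4.89 CPM (1.68 ± 0.11, adjusted p = 3.33e-10). Both were called against set B too, at 1.42 and 1.93. *Prdm14*, another regulator of naive pluripotency, had 11.1 against 5.75 CPM on average, just under the fold threshold at 0.94, and *Dppa4* had 137 against 233 CPM at −0.76.

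Genes of the formative and primed states did not move as 1 group. Of 15 tested, 3 were up-regulated and 0 down-regulated, with a median log2 fold change of 0.29. Of all genes tested, 5.59% were called and 2.04% were up-regulated. The list is short, and whether its 3 calls exceed these shares was not tested. *Otx2*, a transcription factor of the primed epiblast, had 24.9, 23.2 and 22.6 CPM in *Hp1γ* Δ/Δ ESCs against 5.44, 5.64 and 7.40 CPM in set A and 11, 10 and 11.8 CPM in set B. It rose by 1.94 on the log2 scale against set A and 1.12 against set B, the only 1 of the 3 called against both. *Zic2* had 121, 119.9 and 118 CPM against 62.2, 59.4 and 55.7 CPM, and *Lef1* had 7.07, 6.60 and 8.50 CPM against 3.83, 3.19 and 3.19 CPM. *Fgf5* (0.85 against 0.64 CPM) did not pass the test, and *Sox3* (log2 fold change −0.89) and *Sox4* (−0.78) passed the p alone on the lower side.

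Among signalling genes, calls made up 8.33% of the BMP, 12.5% of the FGF and ERK and 30.0% of the Wnt list, beside 5.59% of all genes tested. The NODAL and LEFTY list held 0 calls. The lists are short, and no difference between pathways was tested. Of 13 genes of NODAL and LEFTY signalling, which are known as ligands, feedback inhibitors and mediators of a TGFβ branch, 0 were called by edgeR or by DESeq2, 7 had an unadjusted p under 0.05, and at the p alone 0 were higher and 7 lower. The median log2 fold change was −0.30. *Lefty1*, a secreted inhibitor and target of NODAL, averaged 199 CPM in *Hp1γ* Δ/Δ ESCs and 330.4 CPM in set A, and *Lefty2* averaged 343 and 507.5 CPM. The ligand *Nodal* itself averaged 52.3 and 50.1 CPM and did not pass the test. Of 12 BMP pathway genes 1 was up-regulated. It was *Id3*, an inhibitor of helix-loop-helix factors and a common BMP target, which had 32.5, 32.1 and 29.0 CPM against 9.41, 9.76 and 9.72 CPM (log2 fold change 1.70 ± 0.081). At the p alone 6 of the 12 were lower. Of 10 canonical Wnt targets, *Notum* and *Wnt8a* were up-regulated and *Rnf43* was down-regulated. *Notum*, a secreted enzyme that inactivates Wnt ligands, had 31.9, 32.0 and 30.8 CPM against 10.9, 10.1 and 9.58 CPM. *Rnf43*, a ubiquitin ligase that removes Wnt receptors, had 0.865, 0.815 and 1.15 CPM against 1.98, 1.76 and 2.47 CPM, and without the last set A library it fell short of the fold threshold at −0.98. Of 16 genes of FGF and ERK signalling, the immediate early gene *Egr1* rose (54.7, 54.0 and 53.1 against 24.9, 25.3 and 26.7 CPM) and the ligand *Fgf17* fell (10.4, 9.98 and 12.1 against 23.3, 23.9 and 26.6 CPM). The call of *Fgf17* was lost against set B (−0.78).

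Lineage genes were called in both directions. Calls were made for 2 of 14 trophectoderm, 7 of 14 neural, 3 of 16 primitive endoderm and 2 of 8 mesoderm genes, more than the 5.59% of all genes tested in each list, over few members that were mostly at low levels. Of 14 trophectoderm genes tested, *Tfap2c*, a transcription factor of trophectoderm and germ cells, had 108, 107 and 112 CPM in *Hp1γ* Δ/Δ ESCs against 33.4, 31.9 and 31.0 CPM in set A and 49.0, 49.0 and 52.6 CPM in set B (log2 fold change 1.77 ± 0.045, adjusted p = 9.74e-16). In lines that keep HP1γ it averaged 104 CPM (*Hp1α* mutant), 71.6 CPM (*Hp1β* mutant) and 153 CPM (*Hp1α/β* double knockout). In the *Hp1β/γ* and *Hp1α/γ* double knockouts, which lack HP1γ, it averaged 50.4 and 36.6 CPM. *Ascl2*, a placental and imprinted factor, had 4.32, 2.73 and 3.91 CPM against 7.89, 6.24 and 8.37 CPM, and it lost the call without the second *Hp1γ* Δ/Δ library (−0.86) or the last of set A (−0.96). Of 14 neural genes, 3 were up-regulated and 4 down-regulated, so the list went both ways. The rises were *Neurog1*, *Sox21* and *Sox1* (2.54, 2.93 and 2.80 against 0.738, 1.06 and 0.581 CPM). The falls included *Map2* (14.7 against 32.0 CPM on average), *Neurod1* (9.68 against 21.9 CPM) and *Gfap* (0.647 against 1.5 CPM). Of 16 primitive endoderm genes, *Apob* and *Cubn* were down-regulated and *Sox7* was up-regulated, and 7 were lower at the p alone. *Sox7*, at 0.763, 1.10 and 1.33 against 0.784, 0.278 and 0.387 CPM, overlapped between the groups, and its adjusted p of 0.0466 rose to between 0.110 and 0.190 without any 1 of 4 libraries, which were the second and the last of either group. Of 8 mesoderm genes tested *Msx2* rose and *Kdr* fell (2.85, 2.44 and 2.99 against 5.54, 5.74 and 5.76 CPM). Without the second *Hp1γ* Δ/Δ library *Kdr* had a log2 fold change of −0.95.

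Germline genes were called for 4 of 25 genes of meiosis, 1 of 8 of germ cell specification and 1 of 19 of the piRNA list (5.26%), beside 5.59% of all genes tested. Of 25 genes of meiosis and the synaptonemal complex tested, *Stra8*, *Hormad2* and *Meiob* were up-regulated and *Taf7l* was down-regulated. The list's median was −0.25, and 14 of 25 did not pass the p. *Hormad2*, a surveillance protein of unsynapsed chromosome axes, had 2.70, 3.63 and 3.35 CPM in *Hp1γ* Δ/Δ ESCs against 1.89, 0.971 and 0.677 CPM in set A. *Meiob*, of meiotic recombination, had 1.37, 1.18 and 1.15 CPM against 0.415, 0.324 and 0.484 CPM, and its rise against set B (0.90) was below the fold threshold. *Taf7l* lost its call without the last *Hp1γ* Δ/Δ library (adjusted p = 0.0584) and against set B (−0.51). Of 8 genes of germ cell specification tested 1 was called, and 6 were higher at the p alone. It was *Zp2*, an egg coat protein, with 0.611, 0.570 and 0.505 CPM against 0.0923, 0.0463 and 0.0484 CPM, values of few counts. Set A lay under the filter's minimum count, so *Zp2* was tested only through the mutant libraries. Of 19 piRNA and germ granule genes *Gtsf1* was called, with 8.19, 10.1 and 8.45 CPM against 4.29, 4.21 and 4.26 CPM. Set B had 24.8, 22.0 and 17.4 CPM, so that *Gtsf1* was higher than in set A and lower than in set B. Of 30 2-cell-stage genes in the files only *Cphx2* and *Cphx3* could be tested, and both were called. *Cphx2*, with 0 CPM in a set A library, passed the filter only through the mutant libraries. Its call was lost with DESeq2 (adjusted p = 0.259). A call of both genes is therefore no support for a change of this list, although only 5.59% of all genes tested were called.

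Of 8 H3K9 methyltransferase genes tested, 0 were called by edgeR or by DESeq2, where 5.59% of all genes, 1.79% of genes from 10 to 100 CPM and 0.485% of those above were called, so that the count of 0 says nothing particular to them. Of the 8, 6 had an unadjusted p under 0.05, 5 passed the adjusted p, and the log2 fold changes ran from −0.40 to 0.38. *Ehmt2* (G9a) had 174, 173 and 168 CPM in *Hp1γ* Δ/Δ ESCs against 222, 229.6 and 232 CPM in set A, and *Ehmt1* (GLP) had 133, 133 and 134 CPM against 163, 163 and 166 CPM. Both were also lower than in set B, at −0.29 and −0.21. *Setdb1* had 204, 200.2 and 208 CPM against 197, 209 and 197 CPM and did not pass the test, nor did *Setdb2* and *Prdm16*. *Suv39h1*, *Suv39h2* and *Prdm2* passed the p alone with log2 fold changes of −0.20, 0.19 and 0.19. None of 25 HP1 partners and H3K9me3 cofactors, 10 H3K9 demethylases, 9 DNA methylation and TET enzymes, 14 PRC1.6 subunits or 12 PRC2 subunits was called by edgeR or DESeq2. At an unadjusted p under 0.05 there were 16, 7, 7, 10 and 10 of these, and at the adjusted p alone 16, 7, 7, 7 and 8, in both directions.

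Of 23 genes of glutathione and xenobiotic metabolism tested, *Cyp2b23*, *Cyp1a1* and *Cyp1b1* were up-regulated, 0 were down-regulated, and all 3 were called against both *wild-type* sets. The 3 of 23 stood beside 5.59% of all genes tested. The whole Cyp family did not move with them, since 25 tested members had a median log2 fold change of −0.22, with 4 higher and 5 lower at the adjusted p alone. *Cyp1a1* and *Cyp1b1* encode cytochrome P450 enzymes that are textbook targets of the aryl hydrocarbon receptor. *Cyp1b1*, on chromosome 17 from 79701537 to 79715061, had 2.59, 2.28 and 2.66 CPM in *Hp1γ* Δ/Δ ESCs against 0.784, 0.416 and 0.919 CPM in set A and 0.491, 0.670 and 0.274 CPM in set B. *Cyp1a1*, on chromosome 9 from 57687928 to 57703824, had 0.661, 1.06 and 0.735 CPM against 0.138, 0.370 and 0 CPM. Every mutant library was above every *wild-type* library for both genes, with log2 fold changes of 1.83 ± 0.33 and 2.23 ± 0.64. Neither gene reached the filter's minimum count in all set A libraries, so both were tested only through the mutant libraries. *Cyp1a1* had 55 counts in the mutant and 11 in set A. The separation of these genes and their place among the 3 of 23 are therefore no further support. *Nqo1*, another known target of this receptor, averaged 26.1 and 27.5 CPM and did not pass the test, nor did *Aldh3a1* (2.98 and 2.15 CPM). *Gpx4*, an enzyme against lipid peroxides, and *Hmox1*, heme oxygenase 1, passed the p alone with log2 fold changes of 0.73 and 0.61.

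The promoters of these 3 genes are shown because these genes were the calls of the list and a short core motif of the receptor, GCGTG, can be searched in them. The windows come from RefSeq on GRCm38.p6 and run from 250 bases before to 50 bases after a transcript start, 5′ to 3′ along the gene. Capitals mark GCGTG on either strand, which is written CACGC where it lies on the other strand. The motif was found 54 bases before the start in *Cyp1a1*, 76 bases before it in *Cyp1b1*, and nowhere in the window of *Cyp2b23*. Of all 32851 promoter windows of 27025 genes, 32.4% hold it, so a match is a description only. Windows were found for 575 of the 884 deregulated genes (65.0%), so a comparison of base composition or motif content over the deregulated genes was void and was not made.
*Cyp1a1*, chr9:57697363-57697662, plus strand: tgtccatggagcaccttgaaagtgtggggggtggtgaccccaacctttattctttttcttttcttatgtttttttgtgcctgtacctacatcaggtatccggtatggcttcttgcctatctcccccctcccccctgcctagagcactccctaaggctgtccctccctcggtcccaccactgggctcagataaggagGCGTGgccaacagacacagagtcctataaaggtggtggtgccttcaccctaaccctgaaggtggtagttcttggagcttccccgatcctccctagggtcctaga
*Cyp1b1*, chr17:79715012-79715311, minus strand: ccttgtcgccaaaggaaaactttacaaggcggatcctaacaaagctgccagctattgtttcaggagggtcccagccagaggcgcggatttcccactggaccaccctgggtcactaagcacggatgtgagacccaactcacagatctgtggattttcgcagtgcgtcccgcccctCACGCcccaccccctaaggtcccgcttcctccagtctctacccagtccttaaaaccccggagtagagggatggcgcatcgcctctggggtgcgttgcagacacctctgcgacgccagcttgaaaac
*Cyp2b23*, chr7:26686381-26686680, minus strand: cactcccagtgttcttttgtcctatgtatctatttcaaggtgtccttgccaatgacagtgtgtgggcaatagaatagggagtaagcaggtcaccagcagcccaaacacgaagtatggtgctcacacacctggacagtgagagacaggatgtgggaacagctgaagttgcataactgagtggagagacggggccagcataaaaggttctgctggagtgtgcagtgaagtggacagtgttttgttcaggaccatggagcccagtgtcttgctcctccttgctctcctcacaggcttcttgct

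Called members of some families went 1 way. Calls made up 36.0% of clustered protocadherins, 18.8% of keratins, 4.26% of solute carriers and 1.3% of Zfp genes, beside 5.59% of all genes tested. Of 25 clustered protocadherin genes tested, 0 were up-regulated and 9 down-regulated, and 14 were lower and 0 higher at the p alone. Clustered protocadherins are cell surface proteins encoded in tandem arrays on chromosome 18, where alternative first exons share common last exons, so reads can be split among members. Their median log2 fold change was −0.79, beside −0.01 over all genes. *Pcdhgb8* had 0.458, 0.652 and 0.368 CPM in *Hp1γ* Δ/Δ ESCs against 2.35, 1.2 and 1.45 CPM in set A, and *Pcdhga4* had 0.509, 0.448 and 1.52 CPM against 2.12, 2.31 and 2.95 CPM. Only 3 of the 9, *Pcdhgb8*, *Pcdhga4* and *Pcdhga3*, were also called against set B. Of 16 keratin genes 0 were up-regulated and 3 down-regulated, and of these *Krt12* and *Krt20* held against set B while *Krt222* did not (−0.98). Of 258 solute carriers tested, 4 were up-regulated and 7 down-regulated. *Slc9a7*, an organellar sodium/proton exchanger, fell to 0.560, 0.856 and 0.919 CPM from 3.46, 3.19 and 2.71 CPM. Of 386 Zfp zinc finger genes, 3 were up-regulated and 2 down-regulated. *Zfp296*, a factor of ESCs, rose to 64.8, 67.2 and 61.4 CPM from 30.7, 29.9 and 29.9 CPM, and *Zfp174*, on chromosome 16, fell to 3.76, 2.97 and 3.49 CPM from 7.52, 9.02 and 7.21 CPM. Of 101 ribosomal protein genes only *Rpl39l* was called, and of 15 mitochondrially encoded genes 0 were called by edgeR or DESeq2, with 9 at an unadjusted p under 0.05 and 2 higher and 7 lower at the adjusted p alone. Of 25 Cyp genes tested 4 were up-regulated, the 3 above and *Cyp2c23*, which lost its call without any 1 of 4 libraries, and *Cyp4f41-ps*, a pseudogene, was down-regulated.

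Of 48 imprinted genes tested, *H19* and *Igf2* were up-regulated and *Ascl2* was down-regulated, a share of 6.25% near the 5.59% of all genes. *H19*, a maternally expressed noncoding RNA, had 3.26, 2.53 and 3.31 CPM in *Hp1γ* Δ/Δ ESCs against 0.415, 0.278 and 0.339 CPM in set A (log2 fold change 3.12 ± 0.34). *Igf2*, the paternally expressed growth factor gene next to it, had 99.3, 98.0 and 97.6 CPM against 46.1, 46.4 and 43.7 CPM. Set B had 0.688, 0.223 and 0.730 CPM of *H19* and 78.3, 77.5 and 80.9 CPM of *Igf2*. The rise of *H19* was therefore called against both sets, while that of *Igf2* was 1.12 against set A and 0.33 against set B. Of 15 feeder fibroblast genes tested, 4 were up-regulated and 2 down-regulated (40.0%, beside 5.59% of all genes). *Col1a2* had 5.85, 5.46 and 4.64 CPM against 1.2, 1.53 and 1.45 CPM in set A but 4.87, 6.56 and 6.84 CPM in set B, and *Col1a1* was alike, with log2 fold changes of 1.27 against set A and −0.05 against set B. *Twist1* and *Dcn* were lower, *Twist1* at −0.81 against set B without a call. The 20 genes of this list summed to 1542 to 1590 CPM in the mutant and to 1614 to 1646 CPM in set A, with 1 and 2 of them at 0. Their part in the results was not tested. The interferon genes *Oas1a* (up), *Ifit2* and *Cgas* (down) and the hypoxia-responsive genes *Egln3* and *Vegfa* (down) were the calls among 18 and 25 genes of these lists (16.7% and 8.0%). Against set B *Oas1a* (0.38), *Cgas* (−0.09) and *Vegfa* (−0.90) lost the call. Without the last *Hp1γ* Δ/Δ library *Ifit2* stood at −0.95, without the first *Vegfa* stood at −0.97, and *Cgas* lost its call without any 1 of 3 libraries. *Egln3*, an oxygen sensor of the HIF pathway, fell to 25.6, 21.9 and 22.1 CPM from 55.6, 54.7 and 56.0 CPM. None of 22 adhesion genes and none of 22 p53 targets tested was called by edgeR or DESeq2, while 9 and 17 of these had an unadjusted p under 0.05 and 8 and 16 passed the adjusted p alone. *Hist1h4n*, *H1f1* and *H2bc12* were higher than in set A among 44 histone genes (6.82%), and none of these was called against set B. Of the remaining lists, *Rhox5* was called lower among 3 Rhox genes at the edge of the fold threshold (log2 fold change −1.01) and lost the call with RLE size factors, with DESeq2, without any 1 of 3 libraries and against set B (−0.90). Among 34 collagens (11.8% called) *Col8a2* fell, with no call against set B (−0.73), and *Col6a3*, *Col1a2* and *Col1a1* rose. Neither 2 Hox nor 2 Tdpoz genes were called by edgeR or DESeq2 or had an unadjusted p under 0.05.

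**Figure D3:**
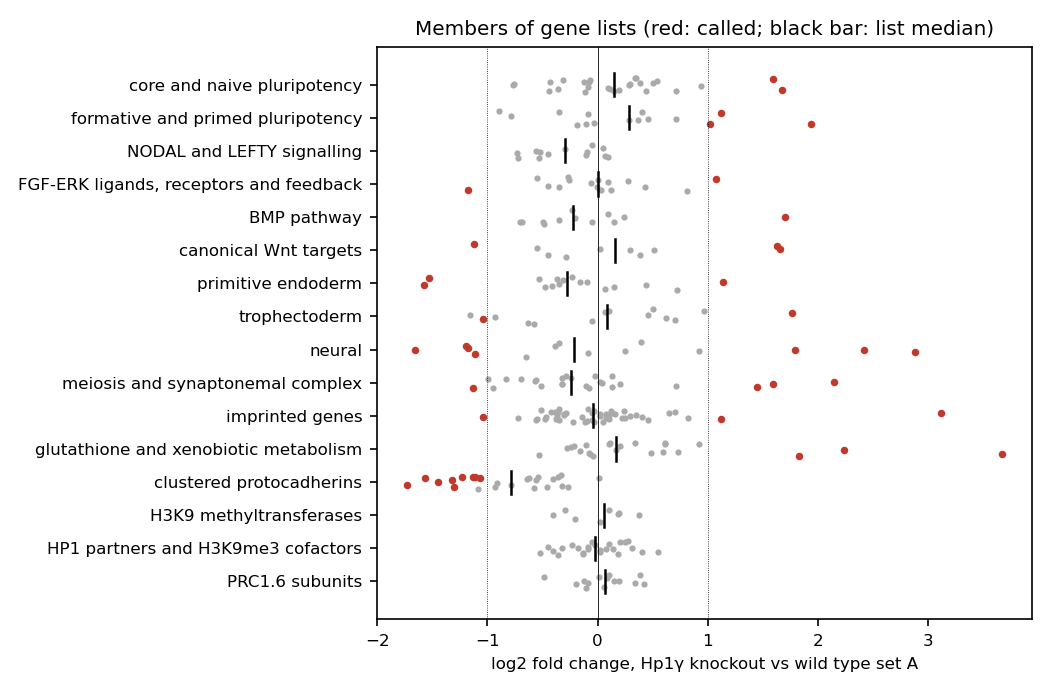
Log2 fold change of Hp1γ knockout against wild type set A (x) of each tested member of 16 gene lists (y), with called members in red and the list median as a black bar. The medians lay between −0.30 and 0.29 except for the clustered protocadherins at −0.79, where 9 of 25 members were called lower.

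Genes of chromosome 16 were lower as a whole. The 463 tested genes of this chromosome had a median log2 fold change of −0.51 against set A, and 91.8% of them lay below 0. The medians of the other 18 autosomes and the X chromosome lay between −0.033 and 0.035. The share of all counts that fell on chromosome 16 was 2.56%, 2.52% and 2.52% in the *Hp1γ* Δ/Δ libraries and 3.46%, 3.46% and 3.47% in set A. Set B had 3.34%, 3.27% and 3.27%, so that the libraries of both *wild-type* sets lay above every mutant library. The median was −0.47, −0.54, −0.52 and −0.56 in 4 successive blocks of the chromosome's tested genes. Of these genes 9 were called higher and 55 lower, 13.8% in all, and they made up 9.80% of the down-regulated genes against 2.93% of the genes tested. Without this chromosome 314 genes were up-regulated and 506 down-regulated, an alternative chosen after seeing the data. The share differed among the other mutant lines. Chromosome 16 took 2.50 ± 0.0063% of the counts in the *Hp1α* mutant and 2.91 ± 0.0063% in the *Hp1β* mutant (SD, n = 3). It took 2.65% in the *Hp1α/β* double knockout, 2.50% in the *Hp1β/γ* and 2.49% in the *Hp1α/γ* double knockout, and 3.25% in the triple knockout, near set B. The median log2 fold change of *Hp1γ* Δ/Δ ESCs against the *Hp1α* and *Hp1β* single mutants was −0.0068 and −0.19. A log2 fold change of a single gene of this chromosome is read against the median of −0.51.

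**Figure D4:**
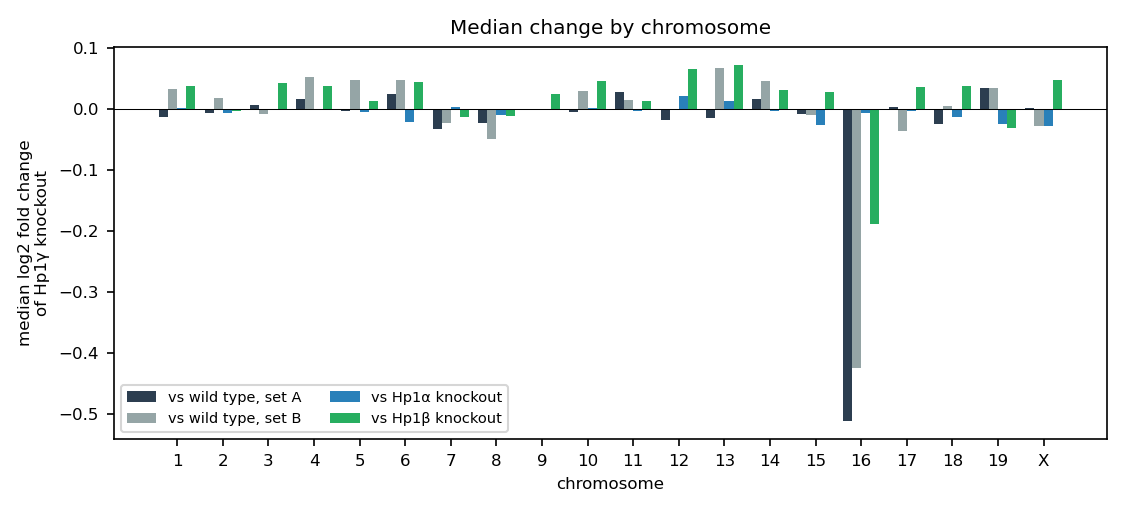
Median log2 fold change of Hp1γ knockout (y) over the tested genes of each chromosome (x) against wild type set A, wild type set B, Hp1α knockout and Hp1β knockout. Chromosome 16 stood at −0.51 and −0.42 against the wild-type sets and at −0.0068 against the Hp1α knockout and at −0.19 against the Hp1β knockout, while the bars of all other chromosomes lay between −0.049 and 0.073.

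At 9 places at least 3 successive tested genes were called 1 way. The longest run held 6 genes on chromosome 16 from 38742264 to 43642602, which were *B4galt4*, *Gm15802*, *Igsf11*, *Lsamp*, *Gap43* and *Zbtb20*, with log2 fold changes from −1.76 to −1.13. Read against the chromosome's median, *Zbtb20* alone stayed beyond the fold threshold at −1.25, and the others lay between −0.83 and −0.61. *Gap43*, a growth cone protein, had 15.6, 15.5 and 18.1 CPM in *Hp1γ* Δ/Δ ESCs against 40.2, 44.9 and 39.7 CPM in set A. *Lsamp*, a neuronal adhesion protein, had 4.17, 3.14 and 4.36 CPM against 9.32, 7.73 and 9.53 CPM in set A, and 0 counts in all 3 libraries of set B. It was thus lower than in set A and at least 83.4-fold higher than in set B, with the latter taken at the floor of 3 counts over the group. On chromosome 3, *Gask1b*, *Glrb*, *Pdgfc*, *Ctso* and *Gucy1b1* were down-regulated from 79884533 to 82074689. On chromosome 18, 5 neighbouring protocadherin genes from *Pcdhga2* to *Pcdhgb2* were down-regulated. *Nos1ap*, *Olfml2b* and *Gm7694* fell on chromosome 1, *Abcg1*, *Ubash3a* and *Gm50218* on chromosome 17, and *Lrfn5*, *Gm48365* and *Gm48368* on chromosome 12. The upward runs were *Cphx2*, *Cphx3* and *Duxbl2*, homeobox genes on chromosome 14 from 26081516 to 26235744, *Igf2*, *Gm49394* and *Igf2os* on chromosome 7, and *Gm49272*, *Gm49273* and *Gm49274* on chromosome 15 from 103649792 to 103661681. *Gm49273* had 39.1, 36.6 and 41.4 CPM against 10.6, 13.9 and 15.4 CPM. Overlapping and near-identical genes in these runs may share reads. Against set B the whole run was called again only for those of chromosomes 1, 14, 15 and 17. *Lrfn5*, *Gm48365* and *Gm48368* each lost the call without at least 3 single libraries.

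Most genes called against *wild-type* cells were not called against the other single mutants. Against *Hp1α* Δ/Δ ESCs, 234 of 16522 genes were called (1.42%), and against *Hp1β* Δ/Δ ESCs 674 (4.08%). Of the 323 genes up-regulated against set A, 65 were called higher than in the *Hp1α* mutant and 76 higher than in the *Hp1β* mutant. Of the 561 down-regulated genes 53 and 55 were called lower than in these. The median log2 fold change of the 323 genes was 1.45 against set A, 0.55 against *Hp1α* Δ/Δ and 0.65 against *Hp1β* Δ/Δ ESCs. That of the 561 genes was −1.27, −0.43 and −0.18 in the same order. A missing call does not show that the mutants were alike, and all of these comparisons share the *Hp1γ* Δ/Δ libraries. *Lama4* is an example of a low level in all, with means of 1.23 CPM in *Hp1γ* Δ/Δ, 2.08 CPM in *Hp1α* Δ/Δ and 1.78 CPM in *Hp1β* Δ/Δ ESCs. *Plcb1* had 1.36, 2.04 and 1.27 CPM in the same order. *Sox21* had 10.1, 7.70 and 10.6 CPM. *Pdzd2*, in contrast, had 5.56 CPM in *Hp1γ* Δ/Δ, 10.7 CPM in *Hp1α* Δ/Δ and 22.1 CPM in *Hp1β* Δ/Δ ESCs.

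A total of 34 genes were apart in *Hp1γ* Δ/Δ ESCs from both *wild-type* sets and from both other single mutants, 22 higher and 12 lower. *Cbx3* itself was among the lower genes. *Mcc*, a gene named for its mutation in colorectal cancer, averaged 20.4 ± 1.17 CPM (SD, n = 3) in *Hp1γ* Δ/Δ ESCs against 70.7, 71.9 and 76.2 CPM in set A and means of 98.5 CPM in set B, 82.9 CPM in *Hp1α* Δ/Δ and 158 CPM in *Hp1β* Δ/Δ ESCs. It and *Cbx3* were the named genes on the lower side, where the other genes had Gm or Rik names or means under 5 CPM. *Slfn9*, of the Schlafen family, had 26.8, 25.3 and 25.2 CPM against 6.5, 6.48 and 9.24 CPM in set A, and means of 7.24, 12 and 3.71 CPM in set B, *Hp1α* Δ/Δ and *Hp1β* Δ/Δ ESCs. *Zfp985* averaged 45.6 CPM in *Hp1γ* Δ/Δ ESCs, with 13, 13.2 and 17.6 CPM in the others, and *Neurog1* averaged 19.9 CPM, with 2.53, 7.85 and 6.15 CPM. *Fmr1nb* averaged 11.5 CPM with 2.69, 3.90 and 0.544 CPM, and *Slc15a2* 9.74 CPM with 1.24, 1.32 and 0.134 CPM. In each of these higher genes the mutant of HP1γ stood highest of the 5 groups, which the choice of these genes required.

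The double knockouts that also lack HP1γ gave a comparison with no library in common, since they were set against set B. In *Hp1α/γ* Δ/Δ ESCs 3657 of 15841 genes were called (23.1%), of which 1069 were higher (6.75%) and 2588 lower (16.3%). In *Hp1β/γ* Δ/Δ ESCs 1929 of 16263 were called (11.9%), of which 1191 were higher (7.32%) and 738 lower (4.54%). Of the genes up-regulated in *Hp1γ* Δ/Δ ESCs that were tested there, 171 of 287 (59.6%) were called higher in the *Hp1α/γ* and 110 of 273 (40.3%) in the *Hp1β/γ* double knockout, and 18 and 15 were called lower. Of the down-regulated genes, 312 of 489 (63.8%) and 145 of 493 (29.4%) were called lower, and 13 and 23 were called higher. The shared genes made up 16% and 9.24% of the genes higher in these double knockouts, and 12.1% and 19.6% of those lower. All 4 shares were above those of all genes tested, and without chromosome 16 the counts were 168 of 280, 106 of 266, 274 of 437 and 125 of 441. The second *Hp1α/γ* Δ/Δ library stood apart from the other two, and without it 507 genes were shared in both directions together, in place of 483. *Cyp2b23* averaged 438 CPM in *Hp1β/γ* Δ/Δ and 81.5 CPM in *Hp1α/γ* Δ/Δ ESCs, *Zfp985* 139 and 152 CPM, and *Rpl39l* 88.7 and 41.6 CPM. *Mep1b* averaged 56.3 and 74.5 CPM. These genes were also above set A in lines that keep HP1γ. In the *Hp1β* mutant and the *Hp1α/β* double knockout *Cyp2b23* averaged 18.4 and 50.1 CPM and *Zfp985* 17.6 and 29.5 CPM. There *Rpl39l* averaged 5.68 and 11.2 CPM and *Mep1b* 21.1 and 22.0 CPM. Other genes of *Hp1γ* Δ/Δ ESCs did not follow in both double knockouts that lack HP1γ. *Stra8* averaged 0.361 CPM in *Hp1β/γ* Δ/Δ and 7.64 CPM in *Hp1α/γ* Δ/Δ ESCs, *Slc15a2* 12.8 and 0.0310 CPM, *Khdc3* 1.40 and 19.8 CPM, and *Efhc2* 41.8 and 6.01 CPM. Of the 34 genes that set *Hp1γ* Δ/Δ ESCs apart, 12 of the 22 higher and 3 of the 12 lower were called the same way in both double knockouts. *Cbx3*, the deleted gene, is among the lower ones. Some of the 34, such as *Alk* and *Atoh1*, were not tested in either double knockout. Of all genes, 6.75% and 7.32% were higher and 16.3% and 4.54% lower in the *Hp1α/γ* and *Hp1β/γ* double knockouts. The share of all genes called in both was not determined, so these counts are a description only.

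**Figure D5:**
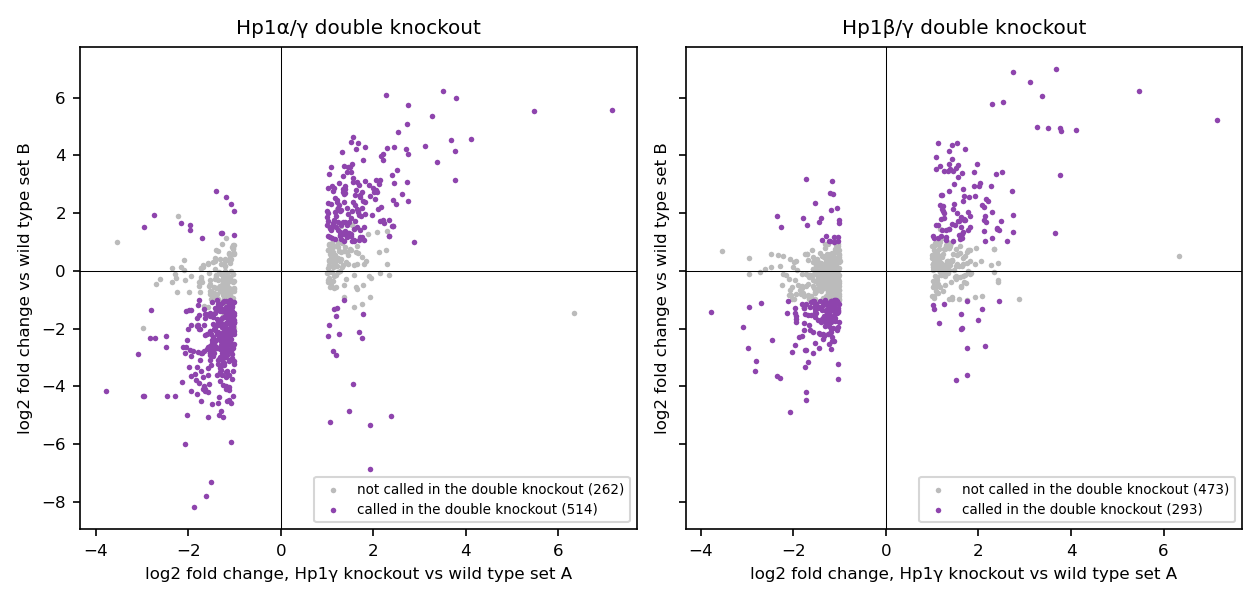
Log2 fold change in Hp1γ knockout against wild type set A (x) and in the Hp1α/γ (left) or Hp1β/γ (right) double knockout against wild type set B (y), 1 point per gene called in the Hp1γ knockout. Purple points were called in the double knockout, and most of these lay in the lower left and upper right, with 171 and 312 shared calls on the left and 110 and 145 on the right.

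HP1γ was also lost in cells without HP1α and HP1β. The triple knockout was set against the *Hp1α/β* double knockout, groups that share no library with *Hp1γ* Δ/Δ ESCs or set A. By the study's methods the triple knockout was made by Cre in floxed cells and collected within days. The study describes floxed cells with a control vector as its control, while the label of the group used here gives only the *Hp1α/β* genotype. Acute and established loss, the missing paralogs, the cell line and the Cre transfection therefore cannot be told apart. Of 18036 genes tested 25.1% were called higher and 15.7% lower. Of 23 of the largest rises and falls of *Hp1γ* Δ/Δ ESCs 3 were called the same way there and 9 the opposite way. The change differed between both settings, by edgeR's interaction test at the adjusted p, for 69.9% of all genes, so a pass of a single gene is not particular to it.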

How the data were processed

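Total RNA of ESCs was sequenced in 33 libraries, of which 27 were used here. The submitters' processing notes name TopHat2 2.1.1, GRCm38.p5, RSEM and edgeR, while the study's methods say that the authors tested with DESeq2. The deposited tables hold expected counts and TPM per gene. The labels and the methods name different TruSeq kits, and strand use in the counting was not given in the sources used here. The deposited fold changes, p-values and gene ontology terms of the authors' own comparisons were not used, nor was a table of *Setdb1*-deficient cells.

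Expected counts of 55487 genes were rounded to whole numbers (28.5% to 34.7% of nonzero values were not whole), filtered by filterByExpr with a minimum count of 10, scaled by TMM and tested by edgeR 4.0.16 (R 4.3.3, quasi-likelihood, Benjamini-Hochberg adjustment over all genes tested). DESeq2 1.42.0 was an alternative. TPM served only for levels per length of the HP1 genes. Gene coordinates came from GENCODE M21, which held 55141 of the genes. On simulated data of 15596 genes made from these libraries, 100% of 100 genes changed by 1.5 and of 100 changed by 2 (log2) were recovered, and 2 unchanged genes were called. The changed genes were drawn only from genes above a minimum level. The recovery therefore does not cover the lowest levels, where the share of calls was largest.

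Each of the 9 groups had 3 libraries. Named genes were the HP1 genes, *Pou5f1*, *Nanog*, *Sox2* and the H3K9 methyltransferases, the 12 largest changes each way called against both *wild-type* sets (without Gm or Rik names, without overlap, at least 5 CPM in the higher group), by the same conditions at most 6 each way apart from all 4 groups, at most 4 called members of each of 40 lists, and runs of at least 3 neighbours. Other genes were named after their values were seen. Some genes that met these rules are not reported here. Members and lists were chosen with earlier results of these data known. Alternatives were another scaling, DESeq2, other filters, a joint fit, the replicate block, set B as the control, the adjusted p alone and the removal of single libraries.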

Additional observations from a re-analysis of the deposited data

Results flagged for a closer look

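In cells without HP1α and HP1β, several of the largest rises and falls went the other way when HP1γ was lost too, by the triple against the *Hp1α/β* double knockout (edgeR, 3 libraries per group). The triple knockout was made, by the study's methods, by Cre in floxed cells and collected within days, while *Hp1γ* Δ/Δ ESCs were an established line. *Nanog* had a log2 fold change of −2.38 and *Pou5f1* of −0.92 in the triple against the *Hp1α/β* double knockout. Acute or established loss, the state of the cells, the cell line, the Cre transfection and the missing paralogs cannot be told apart here. Of 23 of these genes 3 were called the same way in both contrasts, and the 9 below were called opposite ways. Of all genes tested, 25.1% were called higher and 15.7% lower in the triple against the *Hp1α/β* double knockout. Whether the 9 exceed these shares was not tested. The genes were chosen by their change against set A, which is also an arm of the interaction test, and 69.9% of all genes passed that test at the adjusted p, so its p-values below describe these genes and are no independent support. *Lama4* fell by 2.45 on the log2 scale when HP1γ alone was lost and had a log2 fold change of 3.98 when it was lost in cells without HP1α and HP1β (interaction 6.43, adjusted p = 3.38e-16). *Pclo* had −2.28 and 2.14 (4.42, adjusted p = 2.61e-15), and *Tafa4* −1.94 and 2.85 (4.79, adjusted p = 2.53e-13). *Gask1b* had −1.97 and 1.46 (3.43, adjusted p = 4.32e-11), *Tarm1* −1.97 and 1.63 (3.60, adjusted p = 1.22e-08), and *Plcb1* −2.02 and 1.03 (3.05, adjusted p = 8.57e-06). The opposite order held for *Neurog1* with 2.88 and −1.15 (−4.03, adjusted p = 4.68e-11), *Notumos* with 2.42 and −2.44 (−4.86, adjusted p = 2.79e-10), and *Cphx2* with 2.09 and −3.01 (−5.10, adjusted p = 0.000143). The call of *Cphx2* against set A was lost with DESeq2.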

How the results depend on the processing

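Against set A, the count of 884 deregulated genes lay between 809 and 1074 with RLE size factors, DESeq2, no filter beyond 1 count and a joint fit of 18 libraries. With at least 10 counts in every library 572 genes were called (189 higher), 319 against both *wild-type* sets and 16 apart from all 4 groups. The same filter left 237 genes shared with the *Hp1α/γ* and 151 with the *Hp1β/γ* double knockout, and 915, 137 and 387 genes called against set B, *Hp1α* Δ/Δ and *Hp1β* Δ/Δ ESCs, from fewer genes tested. At the adjusted p alone these counts were 7394 (3701 higher, 3693 lower), 5330, 347, 3614, 3261, 8455, 2271 and 5698. With set B as the control 1693 genes were called (703 higher, 990 lower), and of the 127 genes tried under every alternative the direction turned for *Gtsf1* (−1.24), *Col1a2* (−0.18), *Col1a1* (−0.052), *H2bc12* (−0.19) and *Lsamp* (9.41, a fitted value that depends on the prior count), and outside them for *Adarb2* among others, with 4 of the up-regulated and 31 of the down-regulated genes called the opposite way. The causes were not tested. Of 127 named genes, 94 kept direction and side of the threshold with set B and 26 lost the call. Without single libraries the counts ran from 866 to 911 in all, 308 to 350 higher, 519 to 579 lower, 518 to 531 against both sets, 26 to 33 apart, 471 to 507 and 248 to 256 shared with the double knockouts, and 1771 to 1797, 200 to 213 and 616 to 628 against set B, *Hp1α* Δ/Δ and *Hp1β* Δ/Δ ESCs, and 7 to 16 of the 127 named genes lost the call. Replicate numbers did not pair the samples (same-number correlations −0.0050, −0.0087 and −0.016). With the replicate block 869 genes were called (323 higher, 546 lower), and of the named genes *Sox7* lost its call. Genes of few counts limit these results, but the losses were not confined to the lowest levels. Of 235 calls under 1 CPM, 141 were lost on leaving out at least 1 of the 6 libraries. From 1 to 10 CPM, the class with the most calls, 209 of 509 were lost in this way. The losses were 22 of 129 (17.1%) from 10 to 100 CPM and 2 of 11 at 100 CPM and over.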
